A study of Xenopus laevis with 8 samples.

Results

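Glycolysis, lactate and glucose handling were examined in *Xenopus laevis* tadpole brains in which *neurod2*, a proneural transcription factor gene, had been knocked down. The genes were chosen by name. A gene row belonged to the set where its symbol, after removal of the final .L or .S and of a copy number, was 1 of 41 listed symbols. Of these, 37 symbols had at least 1 row, which gave 70 of the 41881 gene rows, and 63 of the 70 had enough reads to be tested among 25171 rows in all. *eno2*, *pfkl*, *pdk2* and *pcx* matched no row and were not analysed as part of the set. *X. laevis* is an allotetraploid frog, so that many genes exist as a pair of homeologues, written .L and .S after the long and short chromosome of each pair.

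The CRISPants were F0 tadpoles carrying mosaic edits, made with Cas9 and an sgRNA against both the L and S homeologues of *neurod2*. The controls were wild-type siblings that had received Cas9 alone, so that both groups carried Cas9. Each sample was a pool of 4 whole brains taken at stage 47 of the Nieuwkoop and Faber (NF) series, and each condition had 4 pools. Every tadpole belonged to 1 sibship, and p-values therefore measured only the spread between pools of siblings. Because editing was mosaic, each CRISPant pool mixed edited and unedited cells. In pooled whole-brain RNA, fewer cells of a type and less RNA per cell cannot be told apart.

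Glycolysis splits glucose to pyruvate in the cytosol and returns a small yield of ATP. Pyruvate is then reduced to lactate, or enters mitochondria and is converted to acetyl-CoA by pyruvate dehydrogenase for the citrate cycle. The fast control of the pathway sits at hexokinase, phosphofructokinase and pyruvate kinase, and fructose-2,6-bisphosphate is a strong activator of phosphofructokinase. In the mammalian brain astrocytes hold glycogen and export lactate, and neurons take lactate up and use it.

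Read counts assigned to genes totalled 20985937 to 25937707 in the control pools and 18945762 to 25509904 in the CRISPant pools. The set took 0.811% to 0.845% of the counts in control pools and 0.751% to 0.815% in CRISPant pools. Levels are given as CPM, the count of a gene scaled to a common library total after TMM normalisation. *neurod2.L*, a target of the sgRNA, was lower in CRISPants (log2 fold change -0.47, SE 0.12, adjusted p = 0.00748), and *neurod2.S* did not pass (log2 -0.34, adjusted p = 0.111). Summed neuron markers gave 5751 to 6176 CPM in controls and 5506 to 6279 CPM in CRISPants, and summed astroglial markers 3090 to 3441 and 3301 to 3604 CPM. Within the astroglial list 3 of 11 tested rows were higher and 4 lower, from -1.72 to 0.53 on the log2 scale. Summed markers of proliferating progenitors were higher in every CRISPant pool (1163 to 1479 CPM) than in any control pool (618 to 759 CPM), and 15 of 17 tested rows were higher. Endothelial markers (356 to 393 CPM in controls, 332 to 354 CPM in CRISPants) and microglial markers (2.83 to 3.29 and 1.48 to 2.49 CPM) summed to lower levels in every CRISPant pool. Most of their rows did not pass: of 16 tested endothelial rows 1 was higher and 3 lower, and of 3 tested microglial rows 1 was lower. The part of these differences in the results on glucose genes was not tested. CRISPant pool 7 had the lowest summed neuron markers (5506 CPM) and the highest summed red blood cell markers (2183 CPM) of the 8 pools.

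In this set of listed genes, 5 rows passed with a change of more than 1.5-fold in CRISPant brains. The clearest falls were in *pck2.L*, *slc16a7*, *pfkfb4* and *fbp1.S*. Of the 63 tested rows, 9 were higher and 16 lower in CRISPants at an edgeR adjusted p under 0.05, and 38 did not pass. That is 39.7% of the set, against 42.4% of all genes tested, 21.7% higher and 20.8% lower. The counts by role given below are to be read beside these shares. The control and CRISPant pools did not overlap for 24 of the 63 rows, and for 37.8% of all genes. The median log2 fold change was -0.03 in the set and 0.00 over all genes, and the median absolute log2 fold change was 0.16 in the set and 0.23 over all genes. No row of the set rose more than 2-fold and 2 fell more than 2-fold, *pck2.L* and *slc16a7.S*, where 3.58% of all genes passed the test at that size. These 5 were 20% of the 25 changed rows, and 29.1% of the changed genes over the whole table moved by more than 1.5-fold. The median coefficient of variation between pools was 6.03% in controls and 6.94% in CRISPants for the set, and 8.63% and 9.24% over all genes.

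**Figure D1:**
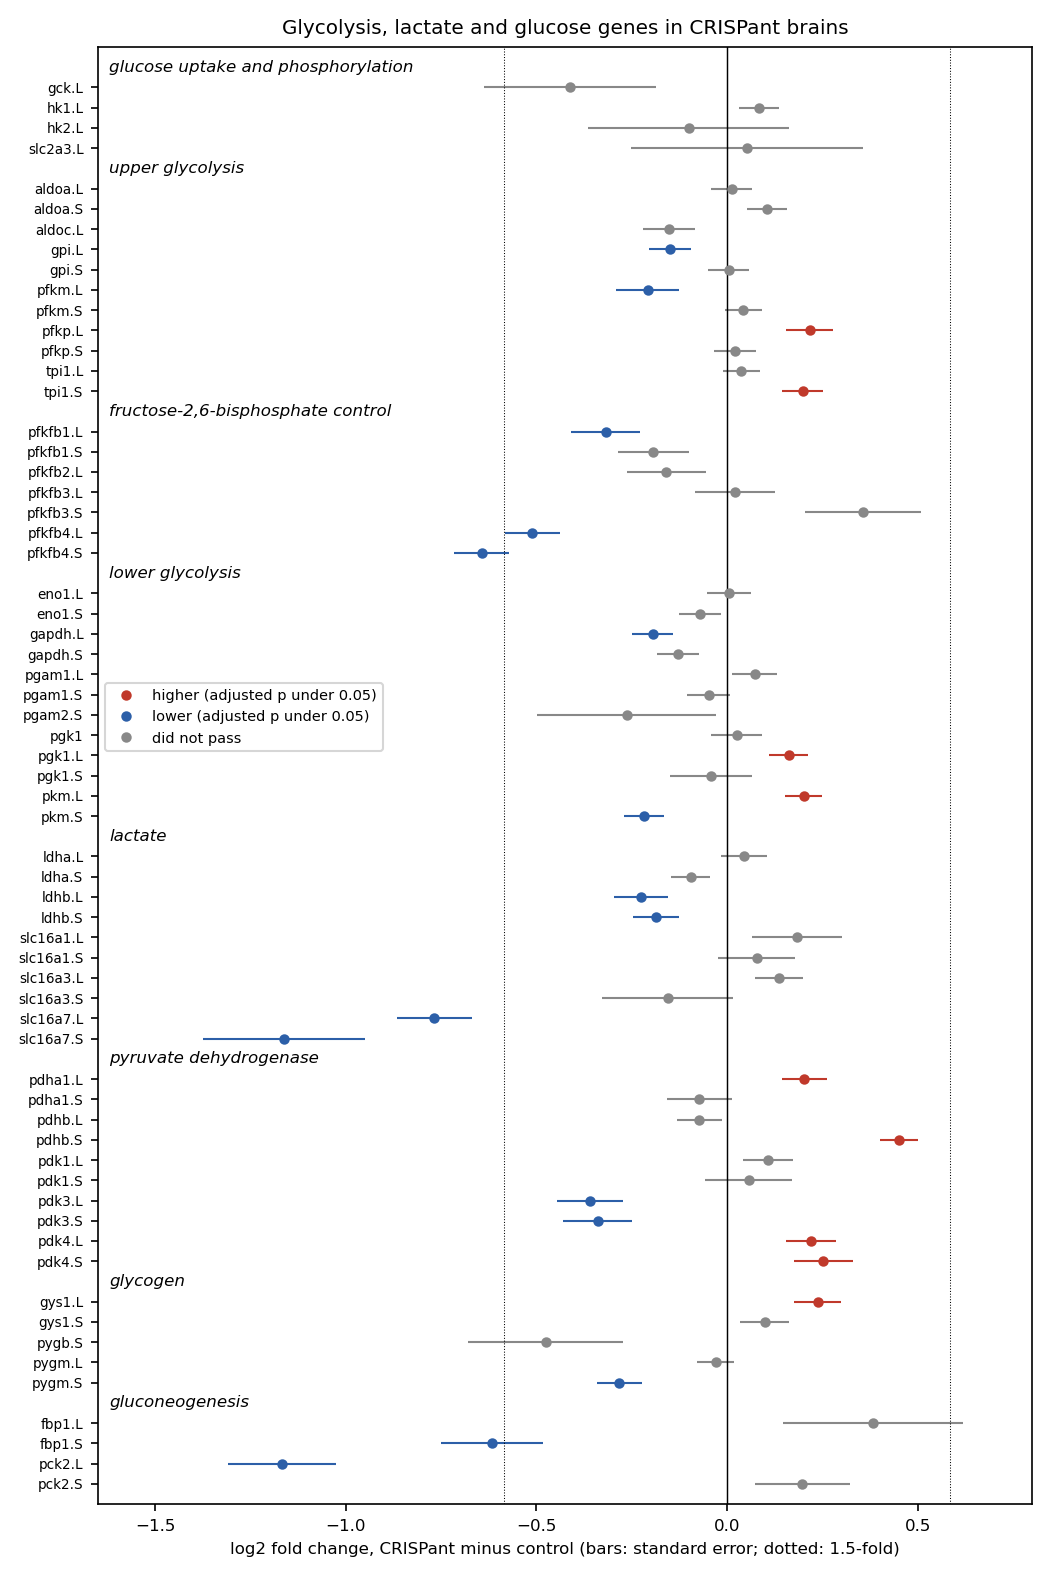
Log2 fold change (CRISPant minus control, x axis) of the 63 tested rows, grouped by role, with bars of 1 standard error. Red points were higher and blue points lower at an edgeR adjusted p under 0.05, grey points did not pass, and the dotted lines mark 1.5-fold. Changed rows of the glycolytic steps sit within 1.5-fold of control, while *pck2.L*, *slc16a7.L*, *slc16a7.S*, *pfkfb4.S* and *fbp1.S* lie beyond it.

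For glucose uptake and phosphorylation, the entry to the pathway, none of the 4 tested rows passed. *hk1.L*, the housekeeping hexokinase of brain, measured 197, 203, 199 and 203 CPM in control pools 1, 2, 4 and 5 and 202, 225, 201 and 222 CPM in CRISPant pools 3, 4, 7 and 9, an order of pools kept below. These groups overlapped (log2 fold change 0.08, SE 0.052, adjusted p = 0.21, 95% interval -0.03 to 0.19). *hk2.L*, the insulin-responsive hexokinase of mammalian muscle, measured 0.968, 1.21, 0.945 and 1.598 CPM in controls and 0.741, 1.14, 1.33 and 1.11 CPM in CRISPants, also overlapping (log2 -0.10, adjusted p = 0.787). *gck.L*, glucokinase, had a log2 fold change of -0.41 with a wide 95% interval of -0.88 to 0.06 (adjusted p = 0.15), and *slc2a3.L*, the GLUT3 glucose transporter of mammalian neurons, one of 0.05 (adjusted p = 0.906). *gck.S* and *hk2.S* fell below the filter on low counts, at most 0.376 CPM in any pool.

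The enzymes of the glycolytic steps from glucose-6-phosphate to pyruvate, 25 rows of which 23 were tested, divided evenly: 4 were higher, 4 lower and 15 did not pass. Their median log2 fold change was 0.01 and their range -0.26 to 0.22, so that none moved by 1.5-fold. Of the 22 with a mean of at least 10 CPM, the fold change ran from 0.859 to 1.16. The 14 of these that did not pass had 95% intervals lying between -0.30 and 0.21 on the log2 scale, with a median standard error of 0.055 over the 22. CRISPant pool 7 was the lowest of the 8 pools in 9 of these 22 rows, and control pool 2 the highest in 9.

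In the upper steps, *tpi1.S*, triose phosphate isomerase, rose (log2 fold change 0.20, SE 0.053, adjusted p = 0.00501), from 114, 113, 109.9 and 126 CPM in controls to 128, 136, 133 and 134 CPM in CRISPants, without overlap. *tpi1.L* did not pass (log2 0.04, adjusted p = 0.559). *gpi.L*, glucose-6-phosphate isomerase, fell by 0.15 on the log2 scale (adjusted p = 0.0316), a call lost when CRISPant pool 3 or 7 or control pool 2 or 4 was left out (adjusted p up to 0.111), and *gpi.S* gave 0.00. The 2 phosphofructokinase genes are given with the isoform ratios.

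In the lower steps, *gapdh.L*, glyceraldehyde-3-phosphate dehydrogenase, fell (log2 fold change -0.20, SE 0.054, adjusted p = 0.00651) and *gapdh.S* did not pass (log2 -0.13, adjusted p = 0.0668). *gapdh.S* passed as lower without control pool 4 (adjusted p = 0.0417). *pgk1.L*, phosphoglycerate kinase, rose (log2 fold change 0.16, SE 0.051, adjusted p = 0.0135), and the rows *pgk1.S* and *pgk1* gave -0.04 and 0.03. The rise of *pgk1.L* missed the threshold without control pool 5 (adjusted p = 0.0521). Enolase 1 did not pass in either homeologue, *eno1.L* with 602, 617, 558 and 559.5 CPM in controls and 596, 613, 522 and 615 CPM in CRISPants (log2 0.01, adjusted p = 0.95) and *eno1.S* with 607, 570.4, 589.8 and 599.7 and 616, 563, 517 and 557 CPM (log2 -0.07, adjusted p = 0.311). Phosphoglycerate mutase 1 did not pass in either homeologue (log2 0.07 for *pgam1.L* and -0.05 for *pgam1.S*), nor did the muscle form *pgam2.S* (log2 -0.26). *pgam2.L* and *eno3.L*, the muscle enolase, were below the filter at no more than 0.258 CPM in any pool.

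Pyruvate kinase, the last step, was the member whose homeologues passed in opposite directions. *pkm.L* (chromosome 3L, 97685218 to 97706091, assembly v10.1) measured 249, 254, 253 and 261 CPM in controls and 296, 301, 279 and 293 CPM in CRISPants, every CRISPant pool above every control pool (log2 fold change 0.20, SE 0.049, adjusted p = 0.00214). *pkm.S* (chromosome 3S, 60975211 to 61003062) measured 344, 372, 364 and 368 CPM in controls and 318, 332, 302 and 293 CPM in CRISPants, every CRISPant pool below every control pool (log2 fold change -0.22, SE 0.052, adjusted p = 0.00202). With both homeologues summed, *pkm* gave a log2 fold change of -0.03 (SE 0.046, adjusted p = 0.609).

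Isoform balance was then compared, where possible setting brain-enriched forms against general or muscle-type ones. *aldoc.L*, aldolase C, which in the mammalian brain is found in astrocytes and Purkinje cells, measured 1164, 1313, 1148 and 1222 CPM in controls and 1187, 1141, 919 and 1114 CPM in CRISPants. The groups overlapped and the difference did not pass (log2 fold change -0.15, SE 0.069, adjusted p = 0.0843), although it passed without CRISPant pool 3 (log2 -0.19, adjusted p = 0.042). *aldoa.L*, the general aldolase, measured 220.4, 204, 215 and 216 CPM and 210.1, 207, 209.7 and 236 CPM (log2 0.01, adjusted p = 0.869), and *aldoa.S* 122, 135, 118 and 123 CPM and 134, 135, 136 and 129.9 CPM (log2 0.10, adjusted p = 0.12). *aldoa.S* passed as higher without control pool 2 (adjusted p = 0.0478). The log2 ratio of *aldoc* to *aldoa*, homeologues summed, was 1.84 ± 0.086 in controls and 1.63 ± 0.168 in CRISPants (SD, n = 4), a difference of -0.20 (exact two-sided permutation p = 0.0857). CRISPant pool 7 had the lowest ratio, 1.41, and the difference was -0.13 without it.

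*pfkp.L*, the platelet-type phosphofructokinase that mammalian neurons express, measured 134, 137, 125 and 146 CPM in controls and 148, 174, 146 and 161 CPM in CRISPants, where the lowest CRISPant pool (146.0 CPM) lay just above the highest control pool (145.8 CPM). It was 1 of the 9 rows that rose (log2 fold change 0.22, SE 0.062, adjusted p = 0.00735). *pfkp.S* measured 213, 245, 224 and 230.3 CPM and 233, 239, 214 and 240.4 CPM, overlapping (log2 0.02, adjusted p = 0.784). *pfkm.L*, the muscle-type form, measured 20.6, 20.5, 20.1 and 21.3 CPM and 17.03, 15.5, 19.1 and 19.9 CPM without overlap, at the edge of the threshold (log2 fold change -0.21, SE 0.084, adjusted p = 0.0498), and the call was lost in 9 of 13 alternative settings (adjusted p 0.024 to 0.178). *pfkm.S* measured 126, 130.2, 132 and 125 CPM and 130.0, 135, 132 and 131 CPM (log2 0.04, adjusted p = 0.507). The log2 ratio of *pfkp* to *pfkm* was 1.29 ± 0.078 in controls and 1.37 ± 0.085 in CRISPants (SD, n = 4), a difference of 0.09 (exact permutation p = 0.143). It differed by homeologue: the L rows alone gave 0.43, and the S rows alone hardly moved (-0.02).

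The other ratios were of *ldha* to *ldhb* (difference 0.12, exact permutation p = 0.229), *hk2* to *hk1* (-0.31, p = 0.229) and *pygb* to *pygm* (-0.27, p = 0.20), all on the log2 scale and all with exact tests. Their pools overlapped between groups. With 4 pools against 4 the smallest exact p is 0.0286, and after Benjamini-Hochberg adjustment over the 5 ratios each stood at 0.229. None of the 5 ratios passed the test. Given that smallest p, a ratio separated on its own could not pass after adjustment over 5, so little follows from this. Only *aldoc* to *aldoa* set a brain-enriched form against a general one. *pfkp* was set against the muscle-type *pfkm*, because *pfkl* matched no row, and *eno2* could not be compared.

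**Figure D2:**
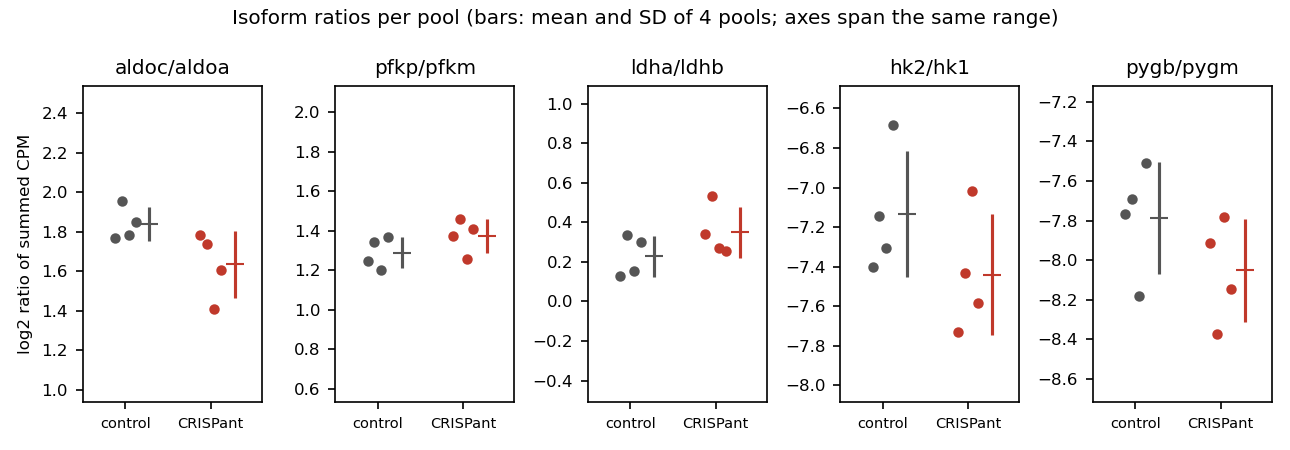
Log2 ratio of summed CPM for 5 isoform pairs in each of the 4 control pools (grey) and 4 CRISPant pools (red). Points are pools, bars are the mean and SD, and the y axes span equal ranges. Points of both groups overlap in each panel, and the *aldoc* to *aldoa* panel has 1 CRISPant pool at 1.41 below the others.

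Fructose-2,6-bisphosphate is made and removed by the bifunctional PFKFB enzymes, and the largest falls among them were in *pfkfb4*. Of 7 tested rows 3 were lower and 4 did not pass. *pfkfb4.S* (chromosome 4S, 103037828 to 103077966) measured 30.8, 33.7, 33.5 and 31.8 CPM in controls and 18.99, 22.6, 19.8 and 21.5 CPM in CRISPants (log2 fold change -0.64, SE 0.073, adjusted p = 6.01e-07). *pfkfb4.L* (chromosome 4L, 122110833 to 122153741) measured 32.8, 37.8, 40.4 and 37.2 CPM and 24.5, 27.1, 26.6 and 25.6 CPM (log2 fold change -0.51, SE 0.072, adjusted p = 9.65e-06). For both homeologues every CRISPant pool lay below every control pool, with fold changes of 0.64 and 0.702. *pfkfb1.L*, the liver and muscle form in mammals, also fell, from 19.1, 18.4, 18.5 and 16.3 CPM to 15.2, 14.3, 16.1 and 12.4 CPM (log2 fold change -0.32, SE 0.09, adjusted p = 0.00731), and *pfkfb1.S* gave -0.19 (adjusted p = 0.104).

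The remaining family members did not pass. *pfkfb2.L* had a log2 fold change of -0.16 (adjusted p = 0.228). *pfkfb3.L*, the form with the highest ratio of kinase to phosphatase activity in mammals, gave 0.02 (adjusted p = 0.894). *pfkfb3.S* measured 4.96, 5.56, 6.16 and 8.88 CPM in controls and 8.304, 6.99, 9.09 and 8.29 CPM in CRISPants (log2 0.36, adjusted p = 0.0657), the highest control pool lying within the CRISPant range. It passed in 3 alternative settings, without a filter on low counts, without CRISPant pool 4 and without control pool 5.

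Lactate is made and used by lactate dehydrogenase and crosses membranes through the monocarboxylate transporters of the SLC16 family. Of 10 tested rows 4 were lower, 6 did not pass and none was higher. The largest falls were in *slc16a7*, MCT2, the high-affinity carrier through which mammalian neurons take up lactate. *slc16a7.L* measured 14.02, 15.9, 17.4 and 16.5 CPM in controls and 9.04, 10.3, 9.73 and 8.19 CPM in CRISPants (log2 fold change -0.77, SE 0.099, adjusted p = 3.03e-06). *slc16a7.S* measured 2.67, 3.25, 3.69 and 2.54 CPM and 0.846, 1.34, 1.51 and 1.67 CPM (log2 fold change -1.16, SE 0.21, adjusted p = 1.68e-04), from 54 to 82 reads per control pool and 16 to 36 per CRISPant pool. All CRISPant pools lay below all control pools in both homeologues.

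The other carriers did not pass. *slc16a1*, MCT1, found in mammals on endothelium and glia, gave log2 fold changes of 0.18 (L, adjusted p = 0.219) and 0.08 (S, adjusted p = 0.561). *slc16a3*, MCT4, the exporter of glycolytic cells, gave 0.14 (L, adjusted p = 0.0874) and -0.16 (S, adjusted p = 0.494). Summed neuron markers overlapped between the groups, with 3 of 20 tested rows higher and 6 lower (log2 -1.27 to 0.33). The part of neuron number in the fall of *slc16a7* was not tested.

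Lactate dehydrogenase B, the form suited to lactate use, fell slightly. *ldhb.L* measured 41.2, 37.9, 45.9 and 45.9 CPM in controls and 36.8, 33.98, 39.2 and 36.2 CPM in CRISPants (log2 fold change -0.23, SE 0.071, adjusted p = 0.014), and *ldhb.S* 259, 241, 253 and 227 CPM and 221, 196, 207 and 236 CPM (log2 fold change -0.19, SE 0.06, adjusted p = 0.0163). The groups overlapped in both, and RefSeq lists *ldha* among the synonyms of *ldhb.L*, so that its assignment to the B form is uncertain. The first call was lost without control pool 5 (adjusted p = 0.0534), and the second without CRISPant pool 4 or control pool 1 (up to 0.0598). Lactate dehydrogenase A did not pass, *ldha.L* measuring 51.8, 56.1, 59.2 and 55.5 CPM and 56.5, 61.9, 54.2 and 56.7 CPM (log2 0.04, adjusted p = 0.585) and *ldha.S* 276, 295, 273 and 281 CPM and 271, 271, 243 and 268 CPM (log2 -0.10, adjusted p = 0.148).

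Pyruvate dehydrogenase joins glycolysis to the citrate cycle and is switched off by the PDK kinases. Of 10 tested rows 4 were higher, 2 lower and 4 did not pass. *pdhb.S* (chromosome 4S, 128447831 to 128460076), the beta subunit of its E1 enzyme, measured 119.8, 114, 115 and 118 CPM in controls and 155, 161, 163 and 159 CPM in CRISPants, the largest rise among the tested rows of the set (log2 fold change 0.45, SE 0.049, adjusted p = 3.31e-07, 1.37-fold). The lowest CRISPant pool stood well above the highest control pool. *pdhb.L* did not follow, with 112, 115, 132 and 109.8 CPM and 109, 109.6, 117 and 111 CPM (log2 -0.07, adjusted p = 0.338). Of the alpha subunit, *pdha1.L* rose (log2 fold change 0.20, SE 0.06, adjusted p = 0.00928) with overlapping groups, and *pdha1.S* gave -0.07.

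The kinases moved by isoform. Both homeologues of *pdk3* fell, *pdk3.L* from 23.1, 23.2, 21.2 and 21.6 CPM to 16.1, 18.1, 15.3 and 19.95 CPM (log2 fold change -0.36, SE 0.086, adjusted p = 0.002) and *pdk3.S* from 15.1, 15.6, 13.4 and 16.5 CPM to 12.1, 11.1, 13.05 and 11.6 CPM (log2 fold change -0.34, SE 0.092, adjusted p = 0.00519), with no overlap between groups. Both homeologues of *pdk4*, induced by fasting in mammals, rose, *pdk4.L* by 0.22 (SE 0.0651, adjusted p = 0.00944) and *pdk4.S* by 0.25 (SE 0.0776, adjusted p = 0.014) on the log2 scale. Control pool 2 reached 72.8 CPM in *pdk4.S*, within the CRISPant range, and this call was lost without control pool 5 (adjusted p = 0.0541). *pdk1.L* (log2 0.11, adjusted p = 0.195) and *pdk1.S* (log2 0.06, adjusted p = 0.717) did not pass.

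Glycogen genes showed 1 rise and 1 fall among 5 tested rows. *gys1.L*, glycogen synthase, measured 39.4, 35.7, 35.1 and 35.3 CPM in controls and 43.8, 44.2, 40.9 and 42.8 CPM in CRISPants without overlap (log2 fold change 0.24, SE 0.062, adjusted p = 0.00409), and *gys1.S* gave 0.10 (adjusted p = 0.233). *pygm.S*, glycogen phosphorylase of the muscle type, measured 157, 165, 175 and 188 CPM and 133, 146, 144 and 140.3 CPM, also without overlap (log2 fold change -0.28, SE 0.058, adjusted p = 5.39e-04). *pygm.L* measured 349, 362, 347 and 343 CPM and 338, 364, 339 and 331 CPM (log2 -0.03, adjusted p = 0.656). *pygb.S*, the brain type, measured 2.01, 2.27, 1.71 and 2.54 CPM and 1.64, 1.38, 1.72 and 1.39 CPM (log2 -0.48, adjusted p = 0.0651) and passed without control pool 4 (adjusted p = 0.0388), and *pygb.L* was below the filter. RefSeq lists *pygb* among the synonyms of *pygm.L*, so the split of symbols between these forms is uncertain. Skeletal muscle markers moved in both directions, with 4 of 20 tested rows higher and 5 lower (log2 -1.01 to 1.26) and 19 rows below the filter, and their part in the glycogen results was not tested. The list's summed level overlapped (49.8 to 54.2 CPM in controls, 43.6 to 51.2 CPM in CRISPants). Of its defining rows, *ckm.L* averaged 0.83 CPM in controls and 1.27 CPM in CRISPants and *acta1.L* 0.068 and 0.088 CPM. Both are low and do not stand for the list, whose sum averaged 51.7 CPM in controls and 46.8 CPM in CRISPants.

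Among the gluconeogenic genes of the set, which oppose glycolysis, 2 of 4 tested rows fell. Pyruvate carboxylase, listed as *pcx*, matched no row and is not in these counts. The row *pc.1.L*, a symbol of the same enzyme outside the set, rose (log2 fold change 0.81, edgeR adjusted p = 4.27e-07) and is given below. *pck2.L* (chromosome 1L, 150633767 to 150643826), mitochondrial phosphoenolpyruvate carboxykinase, measured 5.85, 5.29, 5.98 and 5.59 CPM in controls and 2.12, 2.76, 2.54 and 2.64 CPM in CRISPants, the largest fall among the tested rows of the set (log2 fold change -1.17, SE 0.14, adjusted p = 1.48e-06, 0.445-fold). All CRISPant pools lay below the controls by a wide margin. *pck2.S* measured 6.55, 6.72, 5.804 and 5.500 CPM and 6.35, 6.12, 7.92 and 7.82 CPM, overlapping (log2 0.20, adjusted p = 0.216). *fbp1.S* (chromosome 1S, 125318536 to 125325233), fructose-1,6-bisphosphatase, measured 12.6, 10.6, 10.7 and 8.56 CPM and 6.400, 5.53, 8.09 and 7.73 CPM, a fall with a narrow gap between groups (log2 fold change -0.62, SE 0.13, adjusted p = 8.96e-04). *fbp1.L* measured 1.01, 2.13, 2.02 and 1.55 CPM and 1.64, 2.25, 2.76 and 1.99 CPM (log2 0.38, adjusted p = 0.203).

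*pck1.L*, the cytosolic carboxykinase, stayed below the filter. It had 15, 14, 15 and 9 reads in the control pools and 1, 5, 2 and 3 in the CRISPant pools, which did not overlap, and it passed when no filter was used (log2 -2.19, adjusted p = 3.78e-04). *pck1.S* had 4, 2, 0 and 0 reads in the control pools and 0 in every CRISPant pool. Markers of liver and kidney moved in part with these genes: 2 of the list's 5 tested rows, *apoa1.L* and *apoa1.S*, were lower, and their part in the fall of the gluconeogenic genes was not tested. The list's summed level overlapped, from 19.1 to 28.6 CPM in controls and 18.3 to 76.4 CPM in CRISPants. CRISPant pools 3 and 4 held the highest sums (76.4 and 43.8 CPM), most of it from *tf.L* and *tf.S*, transferrin, which did not pass (log2 1.16, adjusted p = 0.259 and log2 0.81, adjusted p = 0.202). *alb.S* averaged 0 CPM in controls and 0.021 CPM in CRISPants, and *slc22a6.S* was at 0 in every pool.

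**Figure D3:**
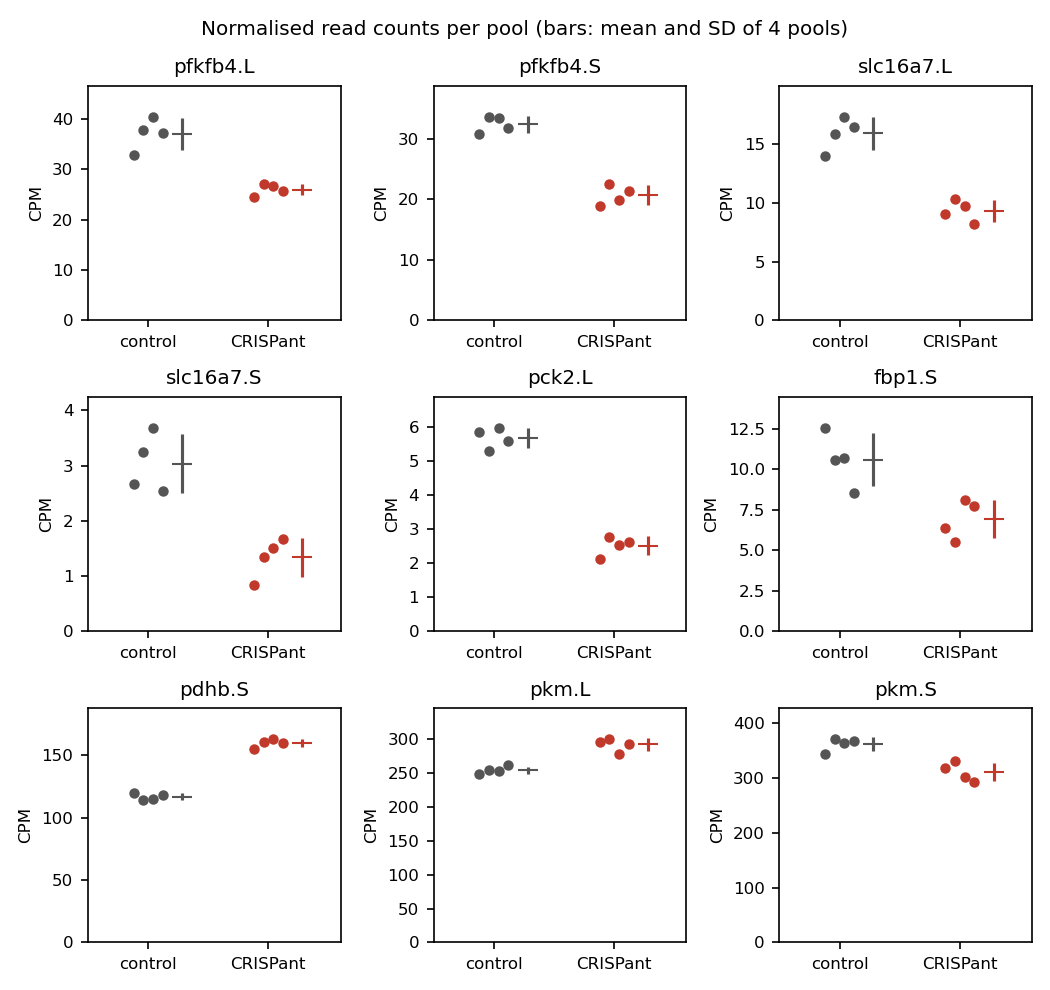
CPM in each control pool (grey) and CRISPant pool (red) for 9 rows, with the mean and SD of 4 pools, each y axis starting at 0. No CRISPant point reaches the control points in *pfkfb4.L*, *pfkfb4.S*, *slc16a7.L*, *slc16a7.S*, *pck2.L*, *fbp1.S* and *pkm.S*, which are lower, or in *pdhb.S* and *pkm.L*, which are higher.

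Summed over all rows of a role, the levels of 4 roles did not overlap between the groups. Of single genes 37.8% did not overlap, and no such share was computed for sums. The sum over pyruvate dehydrogenase subunits and kinases was 512 to 535 CPM in controls and 587 to 596 CPM in CRISPants. It averaged 526.5 and 589.8 CPM, and within it *pdhb.S* alone averaged 116.7 CPM in controls and 159.5 CPM in CRISPants. Lactate genes summed to 697 to 715 CPM in controls and 628 to 678 CPM in CRISPants. The most abundant of them were *ldha.S*, which did not pass and averaged 281 and 263 CPM, and *ldhb.S*, at 245 and 215 CPM. *slc16a7.L* averaged only 15.9 and 9.33 CPM. The PFKFB genes summed to 130.1 to 144 and 109 to 114 CPM, and the gluconeogenic genes to 21.6 to 26.7 and 16.6 to 21.4 CPM. The last of these groups were almost in contact. The sums overlapped for glucose uptake and phosphorylation (201 to 209 CPM in controls, 205 to 229 CPM in CRISPants), the upper steps (2630 to 2849, 2421 to 2718), the lower steps (3255 to 3400, 2937 to 3297) and glycogen (589 to 614, 565 to 604). CRISPant pool 7 gave the lowest value in both sets of glycolytic steps. A sum follows its most abundant rows, so it does not weigh the genes of a role equally.

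**Figure D4:**
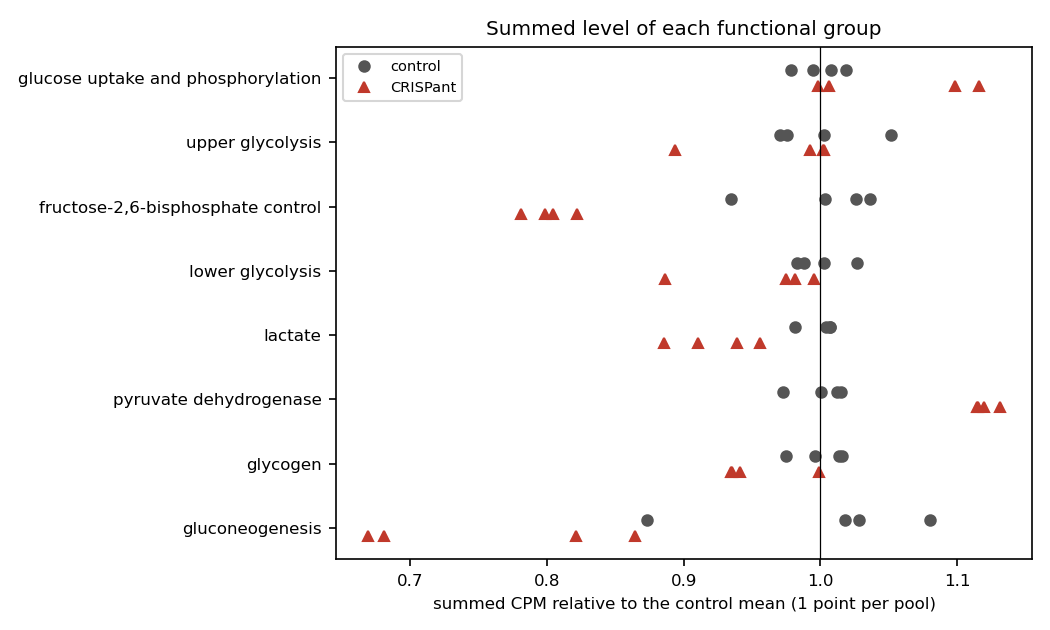
Summed CPM of the genes of each role in each pool, divided by the mean of the 4 control pools (x axis, control mean at 1). Grey circles are control pools and red triangles CRISPant pools. The triangles stand apart to the right for the pyruvate dehydrogenase genes and to the left for the fructose-2,6-bisphosphate, lactate and gluconeogenesis genes. *pc.1.L* is not among the gluconeogenesis genes.

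Homeologues were compared directly, since several changed rows had a partner that did not pass. In 27 pairs both homeologues were tested. Both passed in the same direction in 5 pairs (*ldhb*, *pdk3*, *pdk4*, *pfkfb4* and *slc16a7*), 1 passed in 13, neither in 8, and *pkm* passed in opposite directions. Over the 7427 pairs of the whole table, both passed in the same direction in 22.9%, 1 in 37.4%, neither in 37.2%, and both in opposite directions in 2.52%. The log2 ratio of L to S differed between CRISPants and controls in 4 of the 27 pairs (limma adjusted p under 0.05), where 24% of all 7427 pairs did. The ratio of *pck2* was -0.16, -0.34, 0.04 and 0.02 in controls and -1.55, -1.12, -1.61 and -1.54 in CRISPants (difference -1.34, SE 0.13, limma adjusted p = 6.80e-04). For *pkm* it was -0.47, -0.55, -0.53 and -0.49 in controls and -0.10, -0.14, -0.11 and 0.00 in CRISPants (0.42, SE 0.058, adjusted p = 0.00214). Neither set of pools overlapped.

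The ratio of *pdhb* was -0.09, 0.01, 0.20 and -0.10 in controls and -0.51, -0.55, -0.49 and -0.52 in CRISPants (-0.52, SE 0.078, limma adjusted p = 0.00302). For *fbp1* it was -3.53, -2.26, -2.35 and -2.40 in controls and -1.91, -1.26, -1.52 and -1.91 in CRISPants (0.98, SE 0.29, adjusted p = 0.0406), with control pool 1 far below the other control pools. This last call was lost in 6 of 8 fits that left out 1 pool (adjusted p up to 0.098). Reads that fit both homeologues alike could shift between them, and how such reads were counted is not given in the sources used here. RefSeq lists *pck2.S* among the synonyms of *pck2.L* and *fbp1.S* among those of *fbp1.L*. It places the L rows of both on chromosome 1L and the S rows on 1S.

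**Figure D5:**
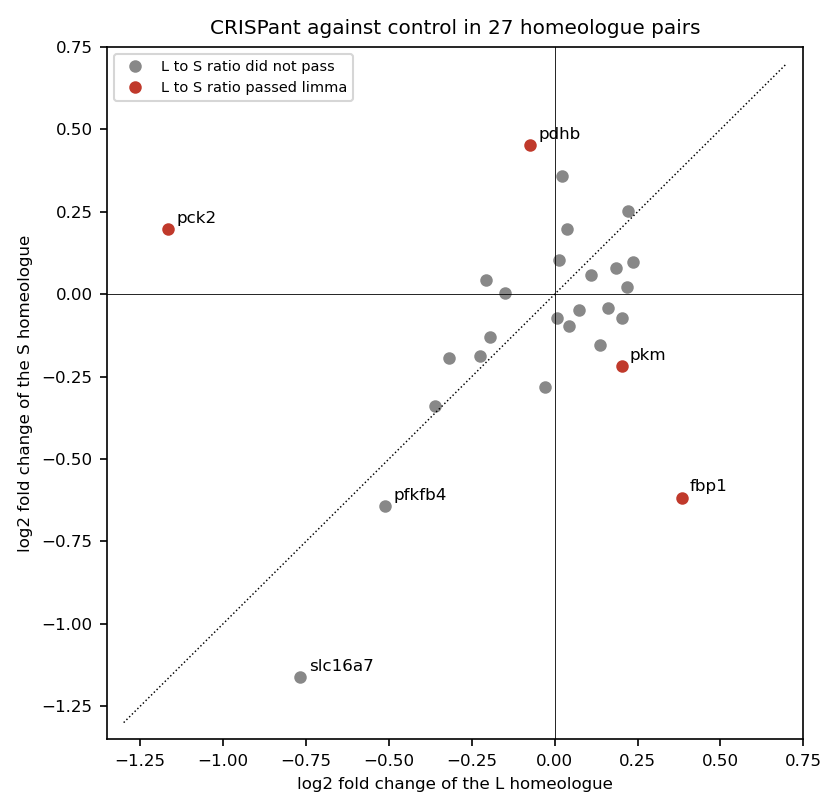
Log2 fold change of the L homeologue (x axis) against that of the S homeologue (y axis) for 27 pairs, with the dotted line marking equal change. Red points are the 4 pairs whose L to S ratio passed limma, *pck2*, *pkm*, *pdhb* and *fbp1*, which lie away from the line. *pfkfb4* and *slc16a7* lie in the lower left corner, lower in both homeologues.

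With homeologues summed before the test, 5 of 35 symbols were higher, 8 lower and 22 did not pass, where 43.6% of 17826 symbols passed over the whole table. The higher symbols were *gys1* (log2 0.16), *pdha1* (0.16), *pdhb* (0.21), *pdk4* (0.24) and *pgk1* (0.12). The *pgk1* sum (edgeR adjusted p = 0.0437) also held the row *pgk1* without a suffix, at a mean of 41.9 CPM. RefSeq places that row on chromosome 5S and *pgk1.L* on 8L, so this sum was not of homeologues alone. The lower symbols were *slc16a7* (-0.83), *pfkfb4* (-0.57), *fbp1* (-0.44), *pdk3* (-0.35), *pck2* (-0.31), *pfkfb1* (-0.27), *ldhb* (-0.19) and *gapdh* (-0.15). *pkm*, *pfkp*, *pfkm*, *gpi*, *tpi1* and *pygm* had a changed homeologue but did not pass when summed, with log2 fold changes of -0.03, 0.10, 0.01, -0.09, 0.09 and -0.11.

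Genes of neighbouring pathways were described by counts. These are to be read beside all genes tested, of which 42.4% passed, 21.7% higher and 20.8% lower. In the pentose phosphate pathway, which branches from glucose-6-phosphate and makes NADPH and ribose, 7 of 15 tested rows were higher and 2 lower (median log2 0.18). *pgls.S*, a lactonase of its oxidative steps, rose (log2 0.47, adjusted p = 3.17e-04), while *tkt.S*, transketolase, fell (log2 fold change -0.69, SE 0.089, adjusted p = 3.10e-06). In the citrate cycle 11 of 28 were higher and 3 lower (median 0.13), among them *sdha.L*, a subunit of succinate dehydrogenase (log2 0.57, adjusted p = 4.12e-08), and *ogdh.S*, a subunit of 2-oxoglutarate dehydrogenase (log2 0.32, adjusted p = 6.39e-05).

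Around pyruvate dehydrogenase, a list of 22 tested rows that includes 10 of the set had 7 higher and 4 lower (median 0.07). *pdhx.L*, which anchors the E3 subunit in the complex, rose from 7.47 ± 0.837 to 14.5 ± 0.337 CPM (SD, n = 4; log2 fold change 0.96, SE 0.099, adjusted p = 1.67e-07), and *pdpr.L*, a regulator of the activating phosphatase, fell (log2 -0.46, adjusted p = 1.03e-04). Pyruvate carboxylase was listed as *pcx*, which matched no row. A row named *pc.1.L*, a symbol of the same enzyme, lay outside the listed symbols and was chosen after its values were seen. It measured 14.2, 11.7, 16.3 and 13.7 CPM in controls and 23.5, 25.3, 25.5 and 23.7 CPM in CRISPants (log2 fold change 0.81, SE 0.09, adjusted p = 4.27e-07).

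Among other glucose transporters and lactate transport partners, 3 of 17 tested rows were higher and none lower: *slc2a8.L* (log2 0.53, adjusted p = 3.86e-04), *slc2a12.L* (log2 0.91, adjusted p = 0.0129) and *slc5a1.2.L* (log2 1.07, adjusted p = 0.00267). The pools of *slc2a12.L* overlapped. *slc2a1*, GLUT1, the transporter of the mammalian blood-brain barrier, did not pass in either homeologue (log2 -0.06 for L and -0.18 for S). Of 33 tested rows of other glycogen and glucose-1-phosphate genes 8 were higher and 4 lower (median 0.10). *pgm1.L*, phosphoglucomutase (log2 0.35, adjusted p = 4.59e-05), and *agl.L*, a homeologue of the debranching enzyme (log2 0.28, adjusted p = 2.06e-04), rose, and *phka2.L*, a phosphorylase kinase subunit, fell (log2 -0.53, adjusted p = 1.36e-05). The homeologues of *agl* moved in opposite directions. *agl.L* averaged 65.5 CPM in controls and 79.6 CPM in CRISPants, while *agl.S* fell from 63.3 to 53.1 CPM (log2 -0.25, edgeR adjusted p = 0.00395).

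Other genes of glycolysis, gluconeogenesis and the shuttles that carry reducing power showed larger changes, with 8 of 26 tested rows higher and 10 lower (median 0.07). *slc25a13.S*, a mitochondrial aspartate-glutamate carrier, rose 2.48-fold (log2 fold change 1.31, SE 0.074, adjusted p = 3.79e-11). *gpd1.L*, cytosolic glycerol-3-phosphate dehydrogenase, fell from 46.4 ± 4.195 to 21.8 ± 2.04 CPM (SD, n = 4; log2 -1.09, adjusted p = 1.38e-09). Of 32 tested hypoxia response rows 2 were higher and 8 lower (median -0.13), with *hif1a.L*, the oxygen-sensitive factor, higher (log2 0.32, adjusted p = 6.78e-05) and its dimer partner *arnt2.L* (log2 -0.25, adjusted p = 2.91e-04) and the mitophagy gene *bnip3.S* (log2 -0.44, adjusted p = 4.42e-04) lower. Of 27 tested regulator rows 6 were higher and 7 lower (median -0.01): *prkag1.S*, an AMPK subunit (log2 0.51, adjusted p = 7.97e-06), and *mtor.L* (log2 0.33, adjusted p = 1.56e-05) rose, and *rptor.L*, a partner of mTOR, fell (log2 -0.35, adjusted p = 1.47e-05).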

How the data were processed

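RNA was measured by stranded mRNA sequencing of whole brains from *X. laevis* tadpoles at NF stage 47, in 4 control and 4 *neurod2* CRISPant pools. The authors mapped single reads of 100 bp with DRAGEN to the XENLA_10.1 build and deposited raw counts per gene row from FeatureCounts. Its strand and multi-mapping settings are not given in the sources used here. All 8 count columns were matched to samples through their library names.

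Counts were filtered (filterByExpr, minimum count 10), TMM normalised and tested with edgeR 4.0.16 (robust quasi-likelihood F-test, R 4.3.3), with Benjamini-Hochberg adjustment over all 25171 rows. Calls had an adjusted p under 0.05. Ratios of L to S were tested with limma 3.58.1 (prior count 2), and isoform ratios with exact permutation tests. The scripts were tested on simulated data. Coordinates and synonyms came from RefSeq (v10.1), which matched 64 of the 70 rows by symbol. No gene lengths were used, so ratios and sums of CPM over different genes were not corrected for length. They serve to compare the groups, and their size does not give the relative abundance of genes.

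The genes and lists were chosen with earlier results of these data known. Values per pool are given for the isoform ratios, up to 12 rows with the smallest p, up to 6 with the largest change at a mean of 2 CPM or more, and pairs whose L to S ratio passed. Some other changed rows are also given so. From each pathway list, up to 3 rows with the smallest p are named, apart from a few that are not reported here. *slc2a1*, in the transporter and endothelial lists, *agl.S* and the marker rows were named outside this rule, after their values were seen.

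Within each condition, counts of any 2 pools varied beyond what sampling alone gives (chi-square per degree of freedom 3.71 to 8.40). Alternatives were DESeq2 1.42.0, median-of-ratios size factors, no filter, a minimum of 1 CPM in 4 pools, no robust option, summed homeologues, prior count 0.5, 1 CPM added to ratios, ratios from 1 homeologue, and each pool left out.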

Additional observations from a re-analysis of the deposited data

Results flagged for a closer look

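In groups of 4 pools, 7 of 136 groups checked (each tested row or ratio in each condition) had 1 pool set apart from the other 3 by more than Dixon's 95% limit, where chance gives about 1 in 20, or 6.8. CRISPant pool 7 was the pool set apart in 3 of them, with 588 CPM in *gapdh.S* (668 to 676 in the others), 243 CPM in *ldha.S* (268 to 271) and 112 CPM in *pgam1.S* (123 to 125), each time the lowest. CRISPant pool 9 was the highest in *aldoa.L* at 236 CPM (207 to 210.1). Control pool 2 was the highest in *gpi.S* at 104 CPM (94.8 to 96.0) and in *pdk4.S* at 72.8 CPM (54.4 to 57.4), and control pool 1 in *gys1.L* at 39.4 CPM (35.1 to 35.8).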

How the results depend on the processing

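Of 49 changed gene rows examined, neighbouring genes included, 43 kept their direction and their side of the threshold under every alternative run. The exceptions were *pfkm.L*, *gpi.L*, *ldhb.L*, *ldhb.S*, *pdk4.S* and *pgk1.L*, each lost with at least 1 pool left out. All of these were among the 25 changed rows of the set. The neighbouring genes were named for a small p or after their values were seen. Little follows from their calls being kept. The counts of 9 higher and 16 lower rows were 9 and 15 with DESeq2, 10 and 16 without a filter, and 8 to 10 and 14 to 17 with 1 pool left out (9 and 16 without CRISPant pool 7). With homeologues summed, which leaves 35 symbols, they were 5 and 8. Pairs with a changed L to S ratio numbered 3 to 4 with 1 pool left out. The ratio of *pfkp* to *pfkm* hardly moved in the S rows alone (-0.0215). That of *pygb* to *pygm* turned to 0.325 in the L rows alone, where *pygb.L* is below the filter. Over all genes, 397 were lower by over 2-fold, against 254 with a minimum of 1 CPM in 4 pools and 645 without a filter, which change the genes tested. Rows near 0 that did not pass changed sign when 1 pool was left out: *aldoa.L* -0.0319 to 0.0325, *eno1.L* -0.0179 to 0.0557, *gpi.S* -0.0132 to 0.0356, *hk2.L* -0.215 to 0.0735, *pdk1.S* -0.0101 to 0.127, *pfkfb3.L* -0.0696 to 0.142, *pfkp.S* -0.0106 to 0.0554, *pgk1* -0.0223 to 0.0643, *pgk1.S* -0.104 to 0.0247 and *slc2a3.L* -0.143 to 0.205 on the log2 scale. Where not stated otherwise, the cause was not tested. No paired analysis was possible because the groups shared only 1 replicate number, 4. With 4 pools a group, the exact test of a ratio cannot go below 0.0286, and rows under about 1 CPM rest on few reads.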
